A study of Mus musculus with 11 samples.

Results

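Foxp3, Ikzf2, Ikzf4, Prdm1, Batf, Irf4, Gata3, Rora, Tbx21 and Maf encode transcription factors that set the identity and the effector state of regulatory T cells (Tregs). They were taken by gene symbol, and all 10 are among the 14604 genes with deposited values and among the 13897 that were tested. Their RNA was followed in Tregs sorted from MC38 tumors (tumor-infiltrating, TI-Tregs) and from spleens of the same tumor-bearing mice, and each was set against Cd3e and Cd4, which every CD4 T cell transcribes, within the same library. MC38 is a mouse colon adenocarcinoma line grown as a graft. Live cells that stained for CD4, GITR and CD25 were sorted, ribosomal RNA was depleted, and 11 libraries were sequenced.

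The 6 spleen libraries comprised 3 of genotype CD177flox/flox (here WT) and 3 of genotype CD177flox/flox/FOXP3-CreYFP (KO). The 5 tumor libraries comprised 3 WT and 2 KO. Both genotypes carry the floxed Cd177 alleles, and all mice carried an MC38 tumor. In KO mice the Foxp3 promoter drives Cre, so deletion is limited to cells that have transcribed Foxp3. The Cre-YFP cassette sits in the Foxp3 locus itself, so an effect of Cd177 loss on Foxp3 and an effect of the altered Foxp3 allele cannot be told apart here. Cd177 itself is not among the genes analysed, and the labels of genotype have no check in these values. The labels give no age or sex, and they do not say whether a library holds 1 mouse or a pool. The p-values below measure the spread between these libraries.

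FOXP3 is the factor that defines Tregs. It works in complexes with other factors and activates genes such as Il2ra and Ctla4 while repressing others such as Il2. Helios (Ikzf2) and Eos (Ikzf4) are Ikaros-family zinc-finger proteins that are abundant in Tregs and help to hold the lineage program. In peripheral tissues, BATF and IRF4, which bind DNA together, and Blimp-1 (Prdm1) drive an effector Treg program, whereas GATA3, RORα (Rora), T-bet (Tbx21) and c-MAF are shared with helper T cell subsets and innate lymphocytes. None of the effector factors is exclusive to Tregs. Macrophages and dendritic cells transcribe Maf, Prdm1 and Irf4, and NK and CD8 T cells transcribe Tbx21 and Prdm1.

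The values are log2(n + 1), as deposited, where n is the estimated abundance per gene symbol. Summed over genes, n came to between 712832 and 844331 in spleen and between 1103159 and 1304548 in tumor libraries. No source used here states the scaling of n, so these sums are not read counts. The scaling matters for directions. The median of all tested genes differed by 0.08 between tumor and spleen as deposited and by -0.43 once libraries were set to equal totals. 5 genes that the sort used or that define a Treg (Cd4, Il2ra, Tnfrsf18, Foxp3 and Ctla4) lay between 4.72 and 9.12 in every library, so the markers of the label were present. They do not show how pure the cells were, and RNA of other cells was abundant in tumor libraries. All 18 myeloid markers were higher there, and their summed n had a log2 of 13.57 to 14.10 in tumor against 8.17 to 9.14 in spleen libraries. For comparison, 16 pan-T genes summed to 10.95 to 11.81 in tumor and to 12.07 to 12.21 in spleen libraries.

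Foxp3 lies on chromosome X of GRCm38 (mm10) from 7573644 to 7595245, plus strand, in GENCODE release M21. Its exons overlap those of Flicr on the same strand and of Ccdc22 on the opposite strand, and strand was not stated for the counting. The other loci are Ikzf2 at chr1:69531214-69687245, Ikzf4 at chr10:128630843-128645991, Prdm1 at chr10:44437177-44528501, Gata3 at chr2:9857078-9890034, Tbx21 at chr11:97098071-97115331 and Maf at chr8:115682942-115707794, all on the minus strand. Batf at chr12:85686669-85709087, Irf4 at chr13:30749226-30766976 and Rora at chr9:68653786-69388246 are on the plus strand. Prdm1, Batf, Irf4 and Tbx21 share no exonic base with another annotated gene.

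The upstream windows of Prdm1, the member with the largest rise, and of Foxp3 are shown as examples of windows that hold matches to motif patterns of other members. They are the 250 bases before a RefSeq start (GRCm38.p6), written 5′ to 3′ along the gene, with motif matches in capitals. RefSeq windows were found for 7 of the 10 genes, without Ikzf2, Ikzf4 and Maf.
Prdm1, chr10:44458749-44458998, minus strand: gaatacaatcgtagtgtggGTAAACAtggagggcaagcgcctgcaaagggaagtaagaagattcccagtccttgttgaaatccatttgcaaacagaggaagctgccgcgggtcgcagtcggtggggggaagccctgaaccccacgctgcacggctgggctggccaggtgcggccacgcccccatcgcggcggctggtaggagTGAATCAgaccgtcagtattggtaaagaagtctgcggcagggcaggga
Foxp3, first start, chrX:7579426-7579675, plus strand: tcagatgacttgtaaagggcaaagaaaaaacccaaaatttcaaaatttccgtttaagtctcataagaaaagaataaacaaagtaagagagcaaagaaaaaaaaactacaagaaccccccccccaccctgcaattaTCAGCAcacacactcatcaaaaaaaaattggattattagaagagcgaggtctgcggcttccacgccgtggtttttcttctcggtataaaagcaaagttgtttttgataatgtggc
Foxp3, second start, chrX:7580233-7580482, plus strand: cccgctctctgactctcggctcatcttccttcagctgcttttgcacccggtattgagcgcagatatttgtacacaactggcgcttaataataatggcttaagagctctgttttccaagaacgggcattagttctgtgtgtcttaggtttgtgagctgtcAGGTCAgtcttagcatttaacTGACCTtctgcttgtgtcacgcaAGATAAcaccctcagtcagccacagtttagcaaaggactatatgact
In the Prdm1 window the capitals mark GTAAACA, the reverse complement of the forkhead motif TGTTTAC, and TGAATCA. The latter matches the loose AP-1 pattern TGANTCA, which allows any base at its centre. BATF complexes with JUN proteins bind AP-1 motifs, but binding to this form was not tested. In the Foxp3 windows they mark TCAGCA, the reverse complement of the MAF half-site TGCTGA, then the ROR half-site AGGTCA, its reverse complement TGACCT, and the GATA motif AGATAA. Both strands were searched, and none of the marked matches overlaps another. Over all 32851 mouse windows of this length, 3.17% held the forkhead, 6.75% the AP-1, 16.1% the MAF, 14% the ROR and 9.99% the GATA motif. The Batf window held a GATA match (TTATCT) and the Gata3 window a MAF half-site (TGCTGA), and neither window is shown. The windows of Irf4, Rora and Tbx21 held none of the 10 motifs searched. A match describes letters in the window and no binding was measured.

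Compared with spleen libraries, tumor libraries held more RNA of Prdm1, Rora, Maf, Tbx21 and Batf and less of Ikzf2, Foxp3, Ikzf4 and Gata3. Irf4 did not pass the test. By limma with Benjamini-Hochberg adjustment, 5 of the 10 genes were higher and 4 lower at an adjusted p below 0.05. Of all tested genes 78.9% were called, 43.1% higher and 35.9% lower, so the share of members called is close to the background. With equal library totals 79.9% of all genes were called, 23.6% higher and 56.2% lower, and 4 members were higher and 4 lower. For 5 members the tissues had no overlapping libraries. These were Prdm1, Rora, Maf and Tbx21, all higher in tumor, and Ikzf2, lower in tumor, against 63.5% of all tested genes (35.2% higher and 28.4% lower). In bulk RNA, fewer cells of a type and less RNA per cell cannot be told apart. The part of other cells, whose RNA was abundant in tumor libraries, was not tested for any member.

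**Figure D1:**
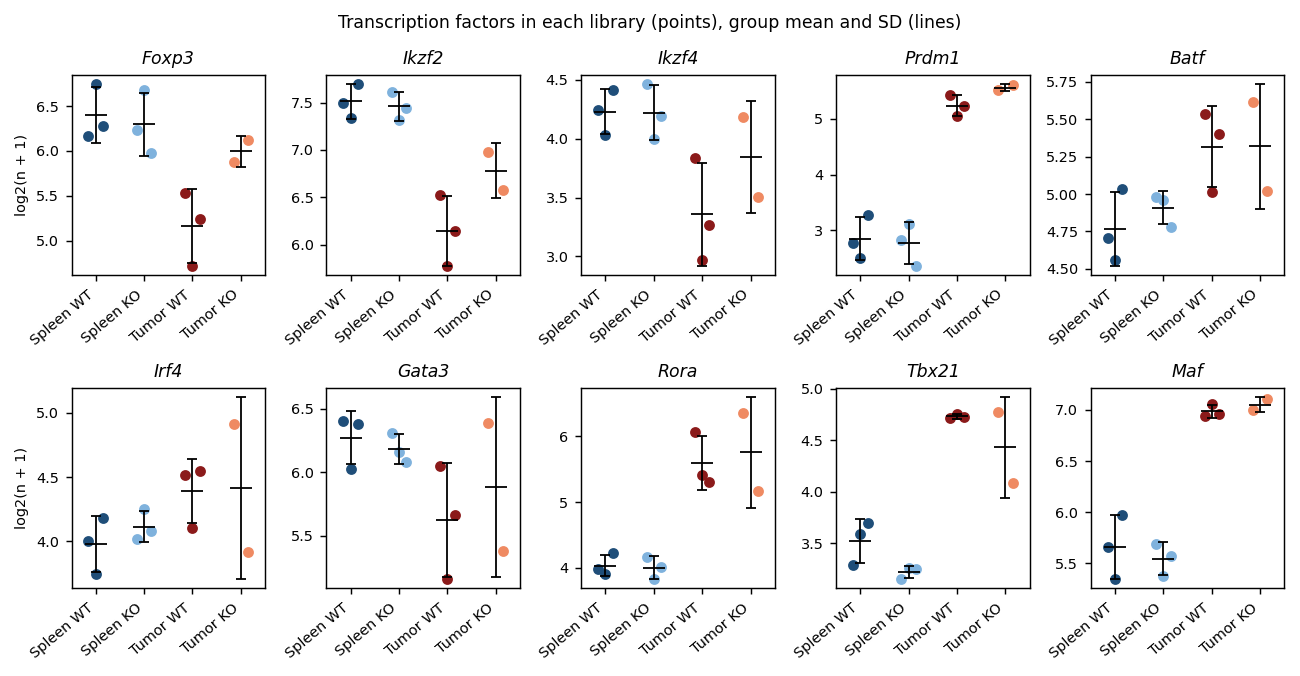
The log2(n + 1) of each transcription factor in each library, by tissue and genotype, with the group mean and SD as lines (3, 3, 3 and 2 libraries). Each panel has its own vertical axis, which does not start at 0. Prdm1, Rora, Maf and Tbx21 are higher in all 5 tumor libraries than in any spleen library, and Ikzf2 is lower in all 5.

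Prdm1 encodes Blimp-1, a repressor of the central, resting program of lymphocytes. In spleen libraries its log2(n + 1) was 2.77, 2.50 and 3.26 (WT) and 2.83, 3.11 and 2.36 (KO). Tumor libraries gave 5.43, 5.05 and 5.24 (WT) and 5.51 and 5.61 (KO). Every tumor library was thus above every spleen library, by more than the spread within either tissue. The difference between the means was 2.56 ± 0.16 (SE; 5 tumor against 6 spleen libraries), a 5.91-fold change of n + 1, with an adjusted p of 1.27e-08 (limma). Prdm1 ranked 715th among all tested genes by the size of its rise.

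Maf, which encodes c-MAF, a driver of Il10 in T cells, was the member with the least spread in tumor. Its values were 5.66, 5.35 and 5.97 in WT and 5.69, 5.38 and 5.58 in KO spleens. In tumors they were 6.94, 7.06 and 6.96 (WT) and 7.0 and 7.11 (KO). The tumor libraries were nearly equal, and none reached down to the spleen values. The difference was 1.41 ± 0.10 (SE), with an adjusted p of 3.74e-08 (limma).

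Rora, an orphan nuclear receptor of helper and innate lymphoid cells, had an even level in spleen, at 3.98, 3.91 and 4.22 (WT) and 4.17, 3.83 and 4.02 (KO). It varied more in tumor, at 6.06, 5.42 and 5.31 (WT) and 6.35 and 5.16 (KO). The KO tumors held both the highest and the lowest tumor value, and the tissues did not overlap. Its difference was 1.64 ± 0.19 (SE), with an adjusted p of 4.15e-06 (limma).

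T-bet, the Th1 factor encoded by Tbx21, was at 3.29, 3.59 and 3.70 in WT and 3.15, 3.25 and 3.25 in KO spleens. In WT tumors the values were 4.71, 4.75 and 4.73, and in KO tumors 4.78 and 4.08. The other tumor libraries were nearly equal, and KO tumor replicate 2 stood below them, though above all spleen libraries. The rise of Tbx21 was 1.24 ± 0.14 (SE), with an adjusted p of 3.58e-06 (limma). That replicate was also lowest among tumors in the summed markers of CD8 T and NK cells, at 7.24 against 8.33 to 8.98, and their part in the Tbx21 level was not tested.

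With equal totals, the differences of these genes were smaller but kept their direction and call, at 1.97 for Prdm1, 1.03 for Rora, 0.79 for Maf and 0.65 for Tbx21. An exact two-sided permutation test over all splits of 5 and 6 libraries gave p = 0.0043 for each of the 4 genes, the smallest value this unpaired test allows. Neither it nor the main limma fits paired tumor and spleen libraries of the same mouse, since the labels do not state which libraries share a mouse.

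Batf and Irf4 encode partners that bind composite DNA elements in activated T cells, and both moved little. Batf was at 4.70, 4.56 and 5.04 (WT) and 4.98, 4.96 and 4.78 (KO) in spleen and at 5.54, 5.01 and 5.40 (WT) and 5.62 and 5.02 (KO) in tumor libraries. WT tumor replicate 2 and KO tumor replicate 2 fell within the spleen range. Its difference of 0.48 ± 0.13 (SE) passed the test with an adjusted p of 0.0041 (limma), but the direction turned to -0.13 with equal library totals, where it was not called. Quantile normalization (0.20, adjusted p 0.20) and median centring (0.26, adjusted p 0.097) also ended the limma call.

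Irf4 lay at 4.01, 3.75 and 4.18 (WT) and 4.02, 4.25 and 4.08 (KO) in spleen libraries. In tumors it was at 4.52, 4.11 and 4.55 (WT) and 4.92 and 3.91 (KO). KO tumor replicate 2 was below most spleen libraries and KO tumor replicate 1 above all others. The difference of 0.35 (95% interval 0.0076 to 0.70) had an adjusted p of 0.057 (limma). It passed without KO tumor replicate 2 (0.48, adjusted p 0.0096), without WT tumor replicate 2 (0.43, adjusted p 0.033) or without KO spleen replicate 2 (0.39, adjusted p 0.0499), and with equal totals it turned to -0.24.

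Foxp3, the lineage factor, was lower in tumor as deposited. Spleen libraries held 6.17, 6.75 and 6.28 (WT) and 6.23, 6.67 and 5.98 (KO). Tumor libraries held 5.54, 4.72 and 5.24 (WT) and 5.87 and 6.12 (KO). All 3 WT tumor libraries were below every spleen library, whereas KO tumor replicate 2 was above 1 of the spleens. The difference was -0.85 ± 0.22 (SE), with an adjusted p of 0.0036 (limma), and it was -1.46 with equal totals. Ccdc22, whose exons overlap Foxp3 on the opposite strand, was at 4.74 and 4.72 in WT and KO spleen replicate 2, the libraries with the highest Foxp3. It was at 3.57 to 3.75 in the other 4 spleens. Tumor libraries held 3.67, 4.01 and 4.15 (WT) and 3.82 and 4.42 (KO) of Ccdc22. KO tumor replicate 2 was the highest tumor for both genes, whereas WT tumor replicate 2, the lowest in Foxp3, was not the lowest in Ccdc22. Whether shared reads contribute was not tested.

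Helios, encoded by Ikzf2, had the largest fall of the set. Ikzf2 was at 7.50, 7.34 and 7.70 (WT) and 7.62, 7.32 and 7.45 (KO) in spleen libraries. Tumors gave 6.52, 5.78 and 6.14 (WT) and 6.98 and 6.57 (KO). No tumor library reached the spleen range, and both KO tumors were above all WT tumors. The difference was -1.09 ± 0.17 (SE), with an adjusted p of 6.45e-05 (limma). Ikzf4, which encodes Eos, a co-repressor partner of FOXP3, was at 4.24, 4.04 and 4.41 (WT) and 4.47, 4.0 and 4.2 (KO) in spleen and at 3.83, 2.97 and 3.27 (WT) and 4.18 and 3.51 (KO) in tumor libraries. Its tissues overlapped in KO tumor replicate 1. Ikzf4 differed by -0.67 ± 0.19 (SE; adjusted p 0.0049, limma).

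Gata3, the Th2 and tissue-Treg factor, showed the least stable fall. It was at 6.40, 6.03 and 6.38 (WT) and 6.31, 6.16 and 6.08 (KO) in spleen libraries. In tumor it was at 6.05, 5.16 and 5.66 (WT) and 6.38 and 5.38 (KO). KO tumor replicate 1 was level with the highest spleens while WT tumor replicate 2 was the lowest of all. The difference of -0.50 ± 0.18 (SE) had an adjusted p of 0.025 (limma). It missed the threshold without WT tumor replicate 2 (-0.36, adjusted p 0.067), without KO tumor replicate 2 (-0.41, adjusted p 0.068) or without WT spleen replicate 1 (-0.46, adjusted p 0.05001). Exact two-sided permutation tests gave p = 0.0087 for Foxp3, 0.0043 for Ikzf2, 0.013 for Ikzf4, 0.013 for Batf, 0.061 for Gata3 and 0.082 for Irf4, unadjusted.

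Set against T cell RNA of the same library, all differences shifted upward by the fall of the reference gene, and most of the falls were no longer called. Cd3e, a signalling chain of the T cell receptor complex, was at 8.15, 8.14 and 8.22 (WT) and 8.26, 8.07 and 8.16 (KO) in spleen and at 8.0, 7.36 and 7.49 (WT) and 7.69 and 7.22 (KO) in tumor libraries. Every tumor library was below every spleen library, and the difference was -0.62 ± 0.11 (SE; adjusted p 0.00025, limma). Cd4, the co-receptor used in the sort, differed by -0.42 ± 0.11 (SE; adjusted p 0.0035, limma). Cd3e minus Cd4 differed by -0.20 between the tissues (exact permutation p = 0.030, unadjusted, and adjusted p 0.15 by limma). CD8 T cells carry CD3 too, and the summed markers of CD8 T and NK cells were higher in tumor libraries. Values relative to Cd3e or Cd4 are therefore no amounts per Treg, and the part of other cells in either reference was not tested. Subtracting either gene largely removes a factor common to a library, though not fully, because 1 is added to n. It adds the same amount to the difference of every gene, so larger rises and smaller falls are not particular to the members. For Cd3e it moved the median of all tested genes to 0.70 above spleen.

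Relative to Cd3e, 6 of the 10 genes were higher and 1 was lower in tumor, where 74.1% of all tested genes were called (62.0% higher and 12.1% lower). Prdm1 rose by 3.18 ± 0.20 (SE), Rora by 2.25 ± 0.15, Maf by 2.03 ± 0.16 and Tbx21 by 1.86 ± 0.16. Batf (1.10 ± 0.13) and Irf4 (0.97 ± 0.16) were now called as well. All 6 had no overlap between the tissues, against 56.8% of tested genes (48.4% higher and 8.42% lower). Each had an exact permutation p of 0.0043, the smallest that the unpaired test allows. Relative to Cd4 the same 6 genes were called, with differences of 2.98 for Prdm1, 2.06 for Rora, 1.83 for Maf, 1.66 for Tbx21, 0.90 for Batf and 0.77 for Irf4, and Ikzf2 was the 1 gene called lower, beside a background of 71.0% (54.2% higher and 16.9% lower). The share of members called is near the background on both scales. The differences of Batf and Irf4 relative to Cd3e stand beside the median of 0.70 over all genes.

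**Figure D2:**
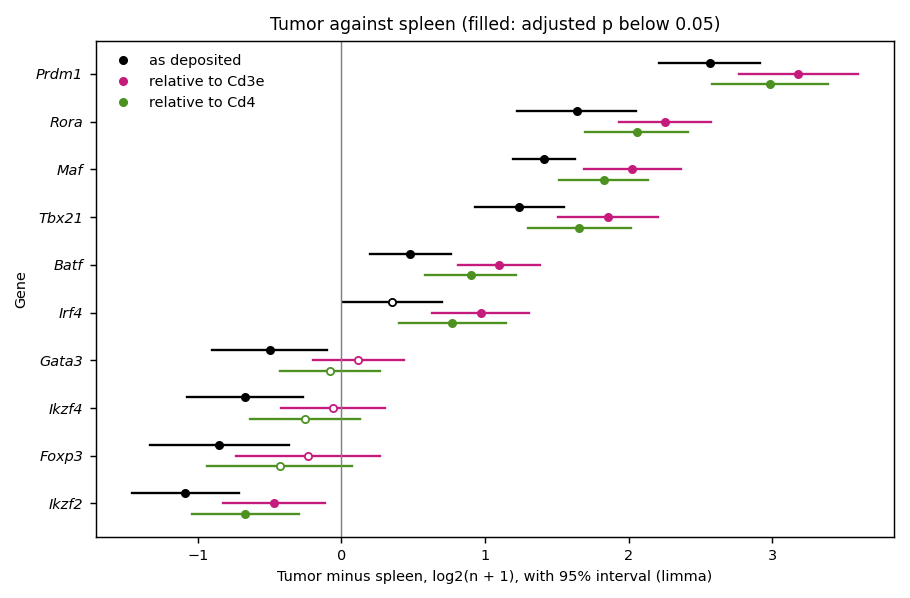
Difference between 5 tumor and 6 spleen libraries for each transcription factor on the log2(n + 1) scale, as deposited (black) and after subtracting Cd3e (magenta) or Cd4 (green) of the same library, with 95% limma intervals. Filled points have an adjusted p below 0.05. Prdm1, Rora, Maf, Tbx21 and Batf are called higher and Ikzf2 lower on all 3 scales, Irf4 only relative to Cd3e or Cd4, and Foxp3, Ikzf4 and Gata3 only as deposited.

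Foxp3 minus Cd3e was -1.98, -1.39 and -1.93 (WT) and -2.03, -1.40 and -2.18 (KO) in spleen libraries. It was -2.46, -2.64 and -2.24 in WT and -1.81 and -1.10 in KO tumors. The WT tumors were below all spleens, and KO tumor replicate 2 was above all spleens. The pooled difference was -0.23 (95% interval -0.73 to 0.27, adjusted p 0.38, limma) relative to Cd3e and -0.43 (95% interval -0.94 to 0.07, adjusted p 0.12) relative to Cd4. Both passed as falls without KO tumor replicate 2, at -0.47 (adjusted p 0.038, limma) and -0.64 (adjusted p 0.015).

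Ikzf2 minus Cd3e was -0.66, -0.81 and -0.52 (WT) and -0.64, -0.76 and -0.71 (KO) in spleens. The WT tumors were at -1.48, -1.58 and -1.34 and the KO tumors at -0.70 and -0.65. Only the WT tumors left the spleen range. Pooled, Ikzf2 fell by 0.47 relative to Cd3e (adjusted p 0.018, limma) and by 0.67 relative to Cd4 (adjusted p 0.0024). The call relative to Cd3e was lost without WT tumor replicate 2 (-0.36, adjusted p 0.061), with the mean of 16 pan-T genes as reference (-0.27, adjusted p 0.15) and after quantile normalization (-0.30, adjusted p 0.084). Ikzf4 (-0.06, 95% interval -0.42 to 0.30) and Gata3 (0.12, 95% interval -0.20 to 0.43) were not called relative to Cd3e, and both changed sign under other references or scalings. Quantile normalization called both as higher (0.48, adjusted p 0.016 for Ikzf4 and 0.49, adjusted p 0.0050 for Gata3). Relative to Cd4, Ikzf4 differed by -0.26 (adjusted p 0.22, limma) and was called as lower without KO tumor replicate 1 (-0.42, adjusted p 0.031).

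**Figure D3:**
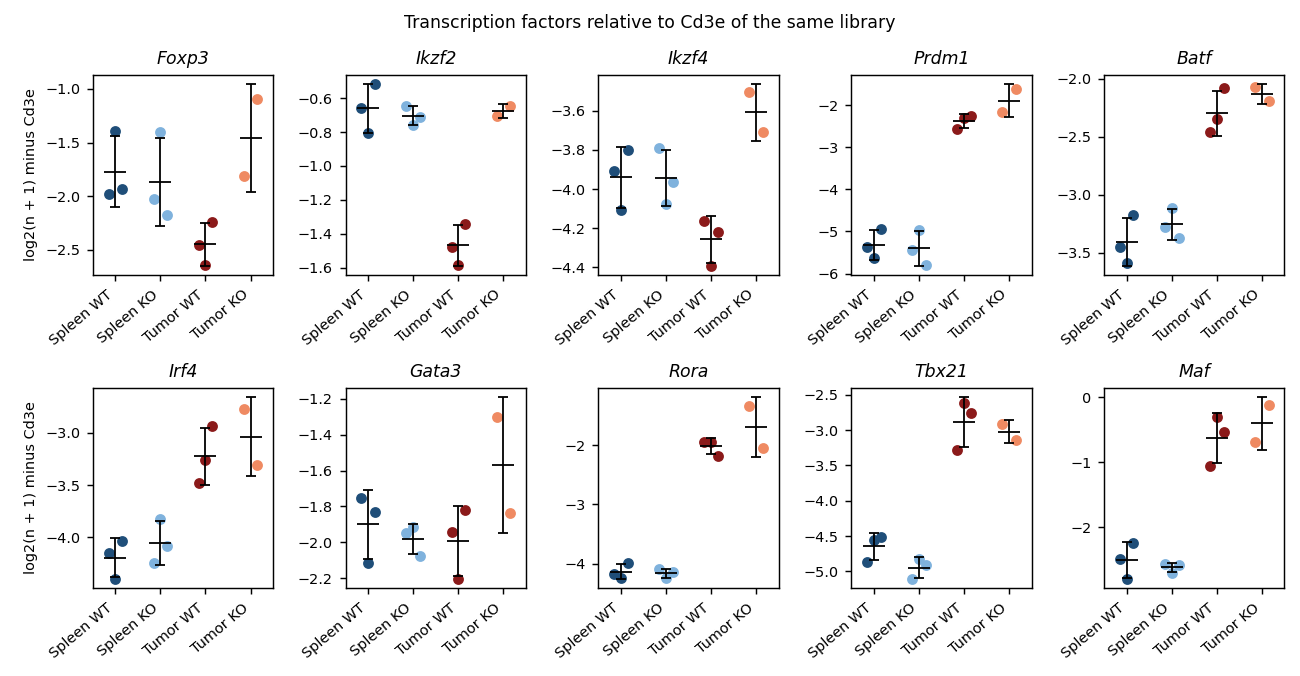
The log2(n + 1) of each transcription factor minus that of Cd3e in the same library, by tissue and genotype, with group mean and SD. Ikzf2 lies between -1.58 and -1.34 in WT tumors and between -0.81 and -0.52 in spleens, with the KO tumors at -0.70 and -0.65. Rora, Prdm1, Maf, Tbx21, Batf and Irf4 are higher in all tumor libraries.

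Foxp3 can also serve as the reference. Foxp3 itself differed by -0.85, so subtracting it shifts the tumor minus spleen difference of every gene by the same amount. No share over all genes was computed on this scale. RNA of other cells counts in these values too, so they give no amount per Treg. Prdm1 minus Foxp3 averaged -3.54 ± 0.41 (SD) over the 6 spleen libraries, against -0.13 ± 0.33 (SD) over the 5 from tumors. For Maf these values were -0.74 ± 0.48 and 1.51 ± 0.54 (SD), and for Rora -2.33 ± 0.41 and 0.16 ± 0.67 (SD). Each of the 3 had an exact permutation p of 0.0043, as did Tbx21 and Batf, with 0.017 for Irf4 and 0.24 for Gata3. Ikzf2 minus Foxp3 went from 1.14 ± 0.41 to 0.90 ± 0.26 (SD; exact permutation p = 0.29) and Ikzf4 minus Foxp3 from -2.12 ± 0.45 to -1.95 ± 0.39 (SD; exact permutation p = 0.38). No difference of Ikzf2 or Ikzf4 from Foxp3 between the tissues was detectable at this spread.

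Within genotypes, the tissue difference was first tested in WT mice (3 tumor against 3 spleen libraries). There 5 members were higher and 4 lower, beside 70.5% of all genes called (39.2% higher and 31.3% lower). Foxp3 differed by -1.23 ± 0.24 (SE; adjusted p 0.00079, limma) and Ikzf2 by -1.36 ± 0.18 (SE; adjusted p 6.86e-05). In KO mice (2 tumor against 3 spleen) Prdm1 (2.80), Rora (1.75), Maf (1.5) and Tbx21 (1.21) were higher and Ikzf2 (-0.68) was lower, beside a background of 65.7% (36.2% higher and 29.5% lower), so 5 of 10 members is no more than the share of all genes. As deposited, Foxp3 differed by -0.30 (95% interval -0.88 to 0.28) in KO mice and was not called, and Batf, Ikzf4 and Gata3 were also called in WT and not in KO mice. With equal library totals these contrasts in calls were gone. Both genotypes then had the same 8 members called, with Prdm1, Rora, Maf and Tbx21 higher and Foxp3, Ikzf2, Ikzf4 and Gata3 lower, beside 72.1% of all genes in WT and 68.3% in KO mice. Foxp3 differed on that scale by -1.83 (adjusted p 2.33e-05, limma) in WT and by -0.93 (adjusted p 0.0068) in KO mice, and Batf by -0.04 and -0.21, not called in either.

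The test of that contrast between genotypes called no gene at all (background 0.0%). At an unadjusted p below 0.05 it held 383 genes (2.76%), among them Foxp3 (0.94, 95% interval 0.15 to 1.72) and Ikzf2 (0.68, 95% interval 0.07 to 1.29), each with an adjusted p of 0.9997 (limma). A difference between WT and KO mice in the tissue effect on Foxp3 or Ikzf2 was therefore not established. Relative to Cd3e, a reading added after the values were seen, Foxp3 differed by -0.68 (adjusted p 0.033, limma; background 61.5%) in WT and by 0.41 (adjusted p 0.23; background 60.6%) in KO mice, and Ikzf2 by -0.81 (adjusted p 0.00058) and by 0.03 (adjusted p 0.89). The interaction relative to Cd3e again called 0 genes, with 181 at an unadjusted p below 0.05, (1.3%), including Foxp3 (1.09, 95% interval 0.27 to 1.91), Ikzf2 (0.84, 95% interval 0.33 to 1.35) and Ikzf4 (0.65, 95% interval 0.02 to 1.29), by limma.

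KO against WT was compared within each tissue. In tumor libraries Foxp3 was at 6.0 ± 0.17 (SD, n = 2) in KO and 5.17 ± 0.41 (SD, n = 3) in WT, a difference of 0.83 (95% interval 0.25 to 1.41). Ikzf2 was at 6.78 ± 0.29 and 6.15 ± 0.37 (SD), a difference of 0.63 (95% interval 0.18 to 1.08). Neither genotype overlapped the other for Foxp3, Ikzf2 or Prdm1, against 13.6% of tested genes (6.69% higher and 6.9% lower in KO). None of the 10 members passed limma's adjusted threshold (adjusted p 0.9997 for Foxp3 and Ikzf2), where 1 gene of all was called (0.0072%). At an unadjusted p below 0.05 there were 634 genes (4.56%), with Foxp3 and Ikzf2 among them. Relative to Cd3e no gene was called, with 400 (2.88%) at an unadjusted p below 0.05, and the differences were 0.99 for Foxp3 (95% interval 0.38 to 1.61, adjusted p 0.997, limma) and 0.79 for Ikzf2 (95% interval 0.41 to 1.18, adjusted p 0.73).

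In spleen no member was called between genotypes either (background 0.0%, with 281 genes or 2.02% at an unadjusted p below 0.05, limma). The largest member difference was -0.31 for Tbx21 (95% interval -0.68 to 0.07), for which the 3 KO libraries were all below the 3 WT libraries, against 9.17% of genes without overlap. Foxp3 differed by -0.10 (95% interval -0.63 to 0.42) and Ikzf2 by -0.05 (95% interval -0.46 to 0.35). These intervals leave room for a change of up to 0.63 in Foxp3 on the log2 scale.

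**Figure D4:**
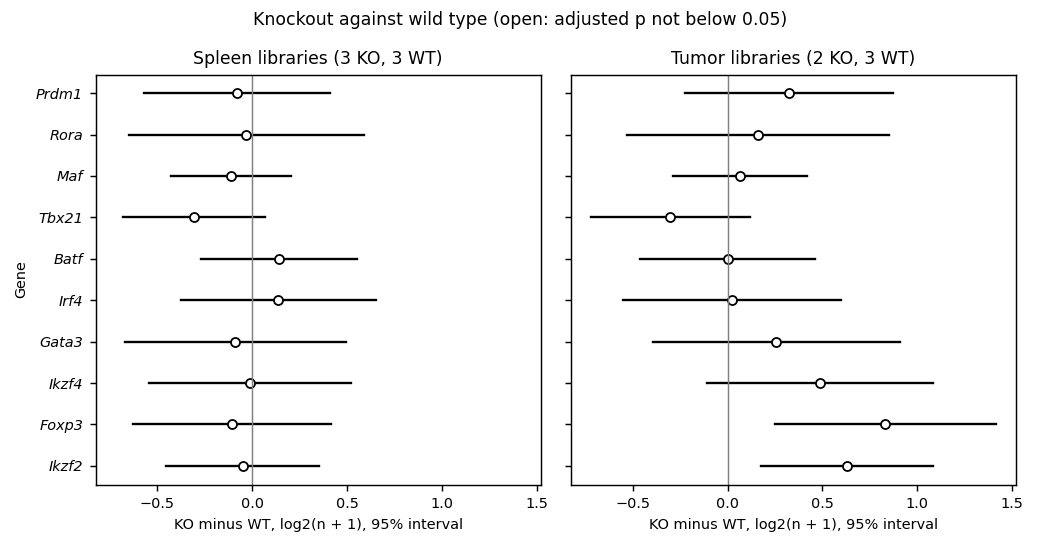
Difference between KO and WT libraries for each transcription factor within spleen (left) and tumor (right), log2(n + 1) with 95% limma intervals. All points are open, since no adjusted p was below 0.05. The tumor intervals of Foxp3 (0.25 to 1.41) and Ikzf2 (0.18 to 1.08) lie above 0 before adjustment for the number of genes.

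Ordering the 4 groups by their means gives the same picture per gene. Foxp3 ran from WT spleen (6.40) through KO spleen (6.29) and KO tumor (6.0) to WT tumor (5.17), and the ranges of neighbours overlapped except between the tumor groups. Ikzf2 ran in the same order, from 7.51 through 7.46 and 6.78 to 6.15, with only the spleen groups overlapping. For Prdm1 the order was KO tumor (5.56), WT tumor (5.24), WT spleen (2.85) and KO spleen (2.77), with only the spleen groups overlapping. Neighbouring groups of Irf4, Ikzf4 and Gata3 all overlapped.

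The wider network was read from lists of family members, partners and targets, described by counts and medians without a test of the list. Over all tested genes the median difference was 0.08, with 43.1% higher and 35.9% lower, and each list is read beside these shares. A mixed list of 10 genes held antagonists of single effector factors and factors of the central, resting state. Of these, 8 were lower and 1 was higher in tumor, with a median of -1.74. Tcf7, which encodes TCF1, fell from 7.71 ± 0.14 (SD, n = 6) to 3.99 ± 0.52 (SD, n = 5), Bach2, a repressor of Prdm1, from 6.36 ± 0.14 to 2.83 ± 0.31, and Lef1 from 6.54 ± 0.12 to 3.14 ± 0.46. Bcl6, a mutual antagonist of Blimp-1, rose by 0.91.

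Of 16 genes that IRF4, BATF and Blimp-1 promote in effector Tregs, 14 were higher and 1 was lower, with a median of 2.53. The largest rises were those of Ccr1 (6.39), the granzyme gene Gzmb (5.43) and Havcr2 (4.91), which encodes TIM-3. Ccr6 differed by -1.15. Myeloid cells also transcribe Ccr1 and Havcr2, and their markers rose in the same libraries, as did the summed markers of CD8 T and NK cells. The part of other cells in the values of this list, Gzmb and Il10 included, was not tested. Il10 went from 3.07 ± 0.64 to 6.01 ± 0.40 and Ccr8, a chemokine receptor of TI-Tregs, from 4.09 ± 0.37 to 6.54 ± 0.29 (SD, n = 6 and 5).

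Among 18 genes that FOXP3 activates, which include Ikzf2 and Ikzf4, 8 were higher and 6 lower, shares near those of all genes, with a median of 0.40. Fgl2 (4.48), Tnfrsf9 (3.33), which encodes 4-1BB, and Capg (2.69) had the largest rises, and Gpr83 (-4.32), Izumo1r (-2.26) and Ikzf2 the largest falls. Of 11 genes that FOXP3 represses, 1 was higher and 6 were lower, with a median of -0.81, led by Tcf7, Bcl2 (-2.43) and Dapl1 (-1.97), while Pde3b rose by 0.74. Equal totals moved the counts to 7 higher and 9 lower among the activated genes (median -0.20). Among the repressed ones they became 0 higher and 8 lower, beside 23.6% higher and 56.2% lower of all tested genes. Relative to Cd3e the repressed genes held 4 higher and 5 lower, beside 62.0% higher and 12.1% lower of all tested genes.

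For targets of the shared helper factors, higher genes outnumbered lower ones in each list, as among all tested genes (43.1% higher and 35.9% lower). With equal totals the lists held 5 higher and 3 lower (GATA3 and RORα), 6 and 1 (T-bet) and 4 and 1 (c-MAF). On that scale 23.6% of all tested genes were higher and 56.2% lower. For GATA3 and RORα, 5 of 9 genes were higher and 2 lower (median 0.95), led by Areg (4.77), Cysltr1 (3.93) and the IL-33 receptor gene Il1rl1 (2.80), with Tnfrsf25 at -2.54 and Il9r at -1.42. For T-bet, 7 of 10 genes were higher and 1 lower (median 1.73), with Klrc1 at 3.36, Ccl5 at 2.83 and Cxcr3 at -0.40. For c-MAF, 4 of 8 were higher and 1 lower (median 1.5), with Mrc1 (4.73), Il10 (2.95), Pdcd1 (2.26) and Cxcr5 (-2.91). Mrc1 is a macrophage gene, and Areg, Ccl5 and Klrc1 are transcribed outside Tregs too.

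Paralogs did not follow their relatives as a group. Of 31 tested paralogs 11 were higher and 15 lower, with a median of -0.26. The Ikaros genes Ikzf1 (-1.36) and Ikzf3 (-1.29) fell as Ikzf2 did, and the forkhead gene Foxp1 fell by 2.36. Irf5 (2.78) and Irf8 (2.66), which macrophages and dendritic cells use, were among the largest rises, and Gata1 (-3.23) and Prdm15 (-1.62) were among the largest falls. Of 26 partners and co-factors 14 were higher and 7 lower (median 0.22). Among them Spi1 (4.13, PU.1 of myeloid cells), Nfil3 (3.54) and Bhlhe40 (2.26) rose most, and Hdac7 (-1.50), Zfpm1 (-1.48) and Nfatc1 (-0.80) fell most. With equal totals 7 paralogs were higher and 20 lower, and 6 partners were higher and 16 lower. On that scale 23.6% of all tested genes were higher and 56.2% lower, so these counts largely follow the background.

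**Figure D5:**
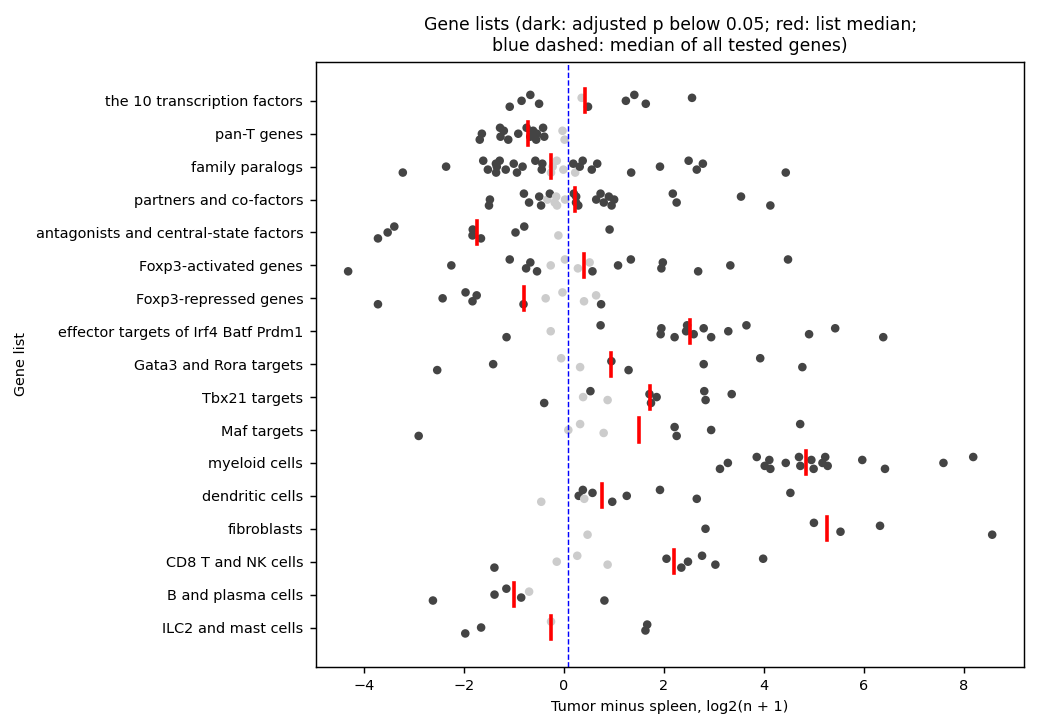
Tumor minus spleen difference of each tested gene of the lists, log2(n + 1), 1 point per gene, dark where the adjusted p is below 0.05. Red bars are list medians and the dashed blue line is the median of all tested genes (0.08). The medians are -1.74 for antagonists and central-state factors, 2.53 for targets of Irf4, Batf and Prdm1, 4.84 for myeloid markers and -0.71 for pan-T genes.

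Markers of other cells moved with tissue and therefore with every tissue difference above. Of 18 myeloid markers 18 were higher (median 4.84), with Lyz2 going from 4.75 ± 1.18 to 12.35 ± 0.30 and Cd68 from 3.98 ± 0.28 to 8.71 ± 0.20 (SD). Of 10 dendritic cell markers 8 were higher and 0 lower, or 5 and 1 with equal totals (23.6% and 56.2% of all tested genes). Of 6 fibroblast markers 5 were higher, with a summed log2 of 1.84 to 2.18 in spleen and 8.95 to 10.02 in tumor libraries. The 10 markers of CD8 T and NK cells had 6 higher and 1 lower, summing to 5.63 to 6.64 in spleen and 7.24 to 8.98 in tumor, with Cd8a going from 1.41 ± 0.30 to 5.40 ± 0.77 (SD). B and plasma cell markers summed to 4.46 to 6.69 in spleen and 3.16 to 4.68 in tumor libraries, ILC2 and mast cell markers to 3.80 to 4.51 and 4.64 to 5.24, and 1 of 2 tested epithelial markers was higher. Of the 14604 genes, 0 were listed at 0 in any library.

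Prdm1 and Maf, which macrophages transcribe, rose in those tumor libraries, and Tbx21 rose beside the CD8 T and NK markers. The part of other cells in these rises, and in the differences of the other members, was not tested. Among tumors, the myeloid sum ran from 13.57 to 14.10, and Maf stayed between 6.94 and 7.11. WT tumor replicate 2 had the highest myeloid (14.10) and fibroblast (10.02) sums and the lowest Foxp3, Ikzf2, Ikzf4 and Gata3 of all libraries. KO tumor replicate 2 had the lowest pan-T sum (10.95) and the highest Foxp3 of the tumors.

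For each factor, the genes with the nearest profile over the 11 libraries were found by the root mean square difference of centred log2 values. Batf and Irf4 were near each other, at 0.13 in this measure, after Gtf2f2 (0.11) and Lpxn (0.13) for Batf and with Batf the nearest of all to Irf4. Prdm1 was nearest to Shtn1 (0.22), Klrg1 (0.22), a receptor of terminally differentiated effector lymphocytes, and Efhd2 (0.23). Gata3 was nearest to the T cell surface gene Cd6 (0.13). Ikzf2 was nearest to Tmem154 (0.09) and Llgl2 (0.11), Ikzf4 to Spock2 (0.13), Rora to Samsn1 (0.17), Tbx21 to Pnkd (0.16) and Maf to Acadl (0.11). Of the members, Foxp3 had the most distant nearest gene, Tnfrsf13c at 0.25, not far from the 0.22 of Prdm1. The libraries differ by tissue and genotype, and nearness describes these libraries only. The profiles keep the tissue difference, so the measure depends on its size.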

How the data were processed

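Tregs from 6 spleens and 5 MC38 tumors were profiled by RNA-seq. The authors pseudoaligned single-end reads with kallisto (mm10), summed estimated counts by gene symbol in sleuth 0.30.0 and deposited log2(n + 1) values. The kallisto version is not given in the sources used here, and no read counts were used. Libraries were grouped by tissue and genotype as labelled. The test covered genes averaging 0.5 or more on that scale (13897, with 707 removed) by limma 3.58.1 (lmFit, eBayes with trend, R 4.3.3) with Benjamini-Hochberg adjustment at 0.05. The pooled fit compared tissues, and a fit with a mean per tissue and genotype gave the genotype contrasts. Cd3e or Cd4 of the library was subtracted from all genes for the relative fits. Exact two-sided permutation tests used scipy 1.17.1. The fit was tested on simulated data. Differences on this scale understate changes of low genes.

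The factors and lists were chosen with earlier results of these data known. Of each list, up to 3 called genes per direction with the largest difference are named, besides markers that define a cell type and the nearest profiles. Some genes that this rule selects are not reported here. Il10, Ccr8, Ikzf1, Ikzf3, Foxp1 and Ccdc22 were named after their values were seen. Alternatives changed scaling, pseudocount, filter, variance model, correction, covariates, reference and libraries. The deposited values hold no read counts, so precision was judged from the spread between libraries.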

Additional observations from a re-analysis of the deposited data

Results flagged for a closer look

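Of 64 sets of values examined for a library far from the others, 4 were marked, where chance gives about 3.2 (1 in 20). KO tumor replicate 1 had the highest Rora relative to Cd3e, at -1.34 against -2.18 to -1.94 in the other tumors, and relative to Cd4, at -0.91 against -1.92 to -1.67. WT spleen replicate 1 had the lowest Rora relative to Cd4, at -3.94 against -3.69 to -3.60. KO tumor replicate 2 had the lowest Tbx21 among tumors, at 4.08 against 4.71 to 4.78. Without the library concerned, Rora relative to Cd3e and to Cd4 and Tbx21 were still called as higher in tumor.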

How the results depend on the processing

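Under 1 change at a time, Prdm1, Rora, Maf and Tbx21 were called as higher in tumor under every setting run, as deposited and relative to Cd3e and to Cd4. With Bonferroni correction 4 factors were called in place of 9, 0 of them lower, 2 in WT and 2 in KO mice, 4 relative to Cd4, 0 lower relative to Cd3e or Cd4, and 5051 of all genes in place of 10971. Equal library totals, also without Gm12896, the most abundant gene, gave 8 calls in KO mice in place of 5, and turned Batf to -0.13 and -0.12 and Irf4 to -0.24 and -0.23. The number lower relative to Cd3e was 0 with the mean of pan-T genes as reference or after quantile normalization, and 0 to 2 with 1 library left out. Relative to Cd4 it was 1 to 2 with 1 library left out, and 2 without KO spleen replicate 2 and KO tumor replicate 1, which had the highest B-cell sum of their tissue, a choice made after seeing the data. Relative to Cd3e, Foxp3 turned to 0.13 after quantile normalization, Gata3 to -0.0068 without these libraries, and Ikzf4 to 0.48 after quantile normalization, 0.086 with a pseudocount of 5 and 0.14 with pan-T genes. With 1 library left out, Gata3 relative to Cd3e ran from -0.012 (without KO tumor replicate 1) to 0.21 and Ikzf4 from -0.18 to 0.042 (without WT tumor replicate 2). Relative to Cd4, Gata3 turned to 0.25 and Ikzf4 to 0.24 after quantile normalization, and Gata3 ran from -0.25 to 0.040 (without WT tumor replicate 2). The cause of these changes was not tested. Between tumor and spleen libraries of the same replicate number, deviations from the group mean had correlations of -0.13 to 0.04. Groups this small cannot show whether a number marks the same mouse. Between WT and KO tumor libraries of the same number, the correlations were 0.45 (replicate 1) and 0.28 (replicate 2). Between WT and KO spleen libraries they were -0.19 to 0.04. The reason was not tested. A replicate block left 9 factors called, 5 higher and 4 lower, and 10512 of all genes.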
